A study of Homo sapiens with 3 samples.

Results

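Integrins and cadherins are the surface receptors by which fibroblasts hold on to matrix and to each other. They were taken as all genes whose symbol on a probe set that names a single gene is ITGA or ITGB followed by a number, ITGAV, or CDH followed by a number. The rule found 40 genes, 19 integrin subunits and 21 cadherins, among 19775 named genes on the array. IMR-90 cells, a strain of normal human lung fibroblasts, were used in a derivative called ER:Ras, after the Ras protein it carries fused to an estrogen receptor domain. All 3 cultures carried this construct and grew in medium with 10% serum. The oncogene-induced senescence (OIS) culture had received 100 nM 4-hydroxytamoxifen (4-OHT), which switches such a fusion on, for 6 days. The replicative senescence (RS) culture had been passaged repeatedly for 10 weeks, and the growing culture was untreated. Each state was measured on 1 array, so that no difference between states has a replicate or a p-value. The deposited value is a MAS5 signal in linear units, and the 2% trimmed mean was 497 on each array.

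An integrin is a pair of an alpha and a beta subunit that spans the membrane. The pair decides which matrix protein is bound, and its inner tails tie the matrix to actin through talin and kindlin. ITGB1 pairs with most alpha subunits of fibroblasts, whereas ITGB3, ITGB5 and ITGB8 pair with ITGAV. Cadherins bind the same or a related cadherin on a neighbouring cell, need calcium to do so, and most hold actin through catenins.

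Signals below 45.5 units, the median of all values, were raised to that floor before log2 ratios were taken, and each gene was read from its brightest probe set. Genes with a signal over the floor in 1 or more states are called measured, 13466 of all named genes. Of the integrin and cadherin genes 24 of 40 were measured, 16 of 19 integrin subunits and 8 of 21 cadherins. Where the dimmer of 2 arrays did not exceed the floor, the fold is a lower limit and is written "at least". Signals of different genes come from different probes and are not set against each other, and each was compared only across arrays. In such whole-culture RNA, fewer cells that make a transcript and less of it per cell cannot be told apart.

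The largest difference among these genes was that of ITGB8, and ITGA1 and ITGA11 were the alpha subunits with the largest ratios of OIS over growing cells. The 250 bases before the start of these 3 genes are shown because they are the RNAs that set OIS apart from both other states by at least 2-fold upward. They are from RefSeq on GRCh38.p14, read toward the gene, and capitals mark matches to 6 motifs searched on both strands. The ITGB8 start in that table lies inside the RefSeq span of the gene, downstream of its outermost start.
ITGB8 promoter (chr7:20330650-20330899, + strand): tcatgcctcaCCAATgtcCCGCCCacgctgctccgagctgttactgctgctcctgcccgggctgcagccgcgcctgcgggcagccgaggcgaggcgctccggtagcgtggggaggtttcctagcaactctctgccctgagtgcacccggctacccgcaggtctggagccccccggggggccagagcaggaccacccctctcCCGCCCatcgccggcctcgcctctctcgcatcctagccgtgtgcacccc
ITGA1 promoter (chr5:52787666-52787915, + strand): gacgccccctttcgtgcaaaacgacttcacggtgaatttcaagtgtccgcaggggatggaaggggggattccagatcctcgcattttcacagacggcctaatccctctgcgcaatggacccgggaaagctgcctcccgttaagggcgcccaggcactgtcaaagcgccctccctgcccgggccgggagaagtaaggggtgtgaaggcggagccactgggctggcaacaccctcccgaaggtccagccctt
ITGA11 promoter (chr15:68432164-68432413, - strand): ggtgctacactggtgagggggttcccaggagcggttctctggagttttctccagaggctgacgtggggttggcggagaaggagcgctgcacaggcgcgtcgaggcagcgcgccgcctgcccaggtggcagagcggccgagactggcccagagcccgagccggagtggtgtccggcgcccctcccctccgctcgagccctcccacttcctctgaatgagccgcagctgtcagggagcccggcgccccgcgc

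The AP-1 motif was spelled TGANTCA, in which N is any base, and the cAMP response element TGACGTCA. The GC box was spelled GGGCGG and the CCAAT box as its name says. The TATA box was searched as TATAAA and the TEAD element as GGAATG. The ITGB8 stretch held 2 GC boxes and 1 CCAAT box, which do not overlap. The ITGA1 and ITGA11 stretches held none of the 6, which says only that these letters are not in this window. A GC box was present in 42.6% of all 35116 promoter windows of the same length and CCAAT in 32.0%. AP-1 letters were found in 6.57% of windows and those of the cAMP response element in 1.65%. The TATA letters stood in 10.7% and the TEAD letters in 11.9%. Among the 15 measured integrin and cadherin genes with a window in the table, 8 had a GC box, 5 CCAAT, 3 the TEAD letters, 1 the TATA letters and none either of the other motifs. The ITGB8 window was 71.2% G and C, that of ITGA11 also 71.2% and that of ITGA1 62.0%, against a median of 58.0% over all windows.

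OIS cells had higher signals than growing cells of 4 integrin subunits past 2-fold, namely ITGA1, ITGA11, ITGB5 and ITGB8, and a lower signal of ITGA7. That is 4 of 16 measured integrins (25%) higher and 1 (6.25%) lower. Over the 24 measured integrin and cadherin genes it is 16.7% higher and 4.17% lower. The shares of all measured genes past 2-fold in this comparison were 4.92% higher and 6.63% lower. No cadherin of 8 passed 2-fold in that comparison. In RS against growing cells ITGB5 and CDH6 were past 2-fold higher and ITGA7 and ITGB8 past 2-fold lower. These were 2 of 24 measured genes (8.33%) in each direction, beside 3.72% of all genes higher and 5.58% lower. Between the senescent states ITGA1, ITGA11 and ITGB8 were past 2-fold higher in OIS than in RS, and ITGA3 and ITGA6 lower. For OIS over RS the shares were 12.5% higher and 8.33% lower, beside 5.48% and 5.27% of all genes. In all, 8 of 24 genes (33.3%) passed 2-fold in at least 1 comparison, against 19.4% of all measured genes. With 24 genes, 1 gene more or less moves these shares by 4.17 percentage points.

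**Figure D1:**
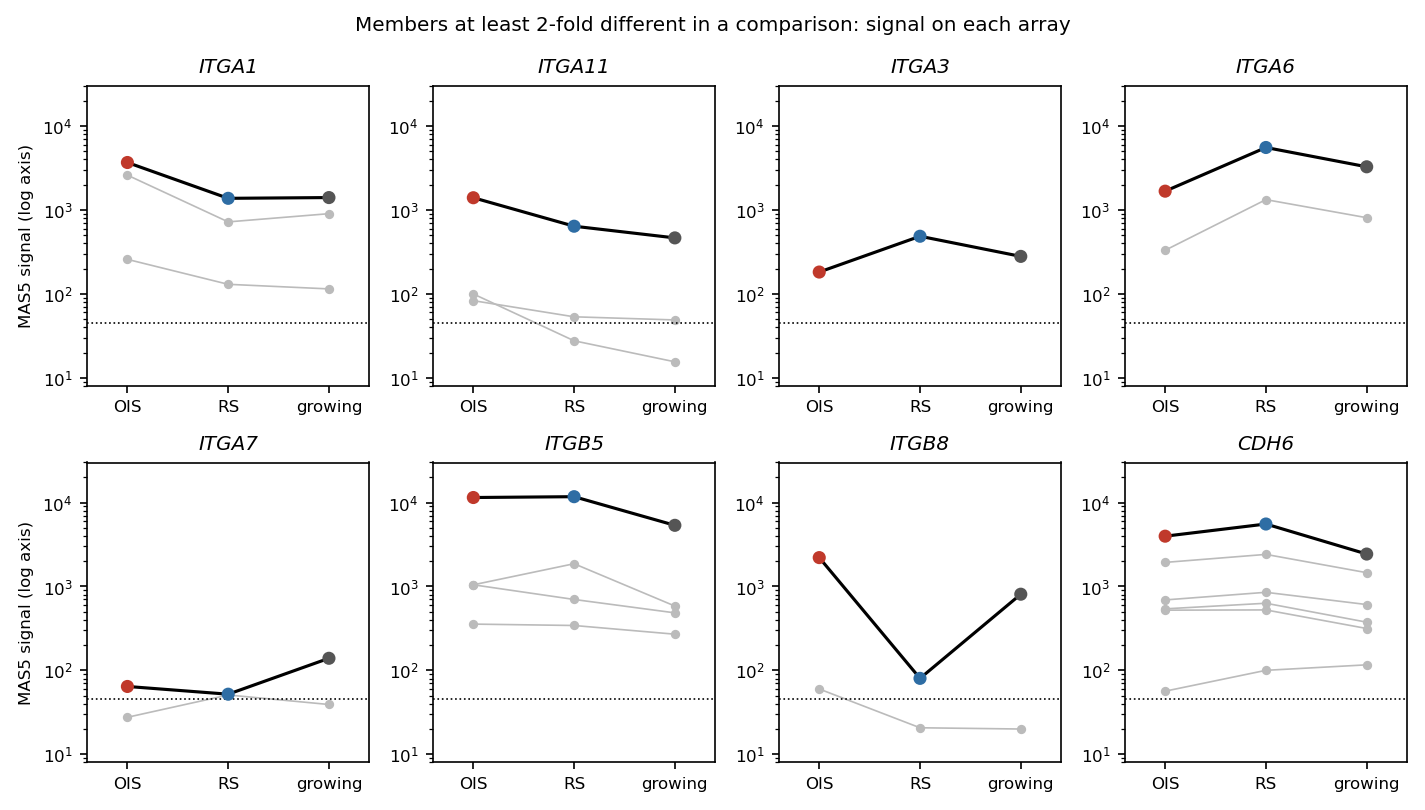
MAS5 signal (log axis) on the OIS, RS and growing arrays for the 8 genes past 2-fold in at least 1 comparison, 1 array a state. Coloured points joined in black are the probe set used for the gene, grey points its other probe sets above the floor, and the dotted line the floor of 45.5. ITGB8 is at 2207 in OIS, 80.3 in RS and 808 in growing cells, while ITGB5 and CDH6 are higher on both senescent arrays than on the growing array.

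The growing array is shared by both comparisons with growing cells, so an error on it enters both. Over the 24 measured genes the median log2 ratio of OIS to growing cells was 0.17, that of RS to growing cells 0.09 and that of OIS to RS -0.07, where the median of all measured genes was 0.00 in each. Of 20 genes above the floor on all 3 arrays, 9 were higher on both senescent arrays than on the growing array and 5 lower on both. A further 3 were higher in OIS and lower in RS, and 3 the other way. In 10 of the 24 genes the log2 ratio was under 0.5 in size in every comparison. For CDH8, CDH15 and ITGA9 among them, that small size depends on the floor, which they did not exceed on every array. With a lower floor, the 25th percentile of the signals, the log2 ratio over growing cells was 1.61 for CDH15 in OIS. It was then -1.07 for ITGA9 in OIS and 1.19 for CDH8 in RS. These counts of direction and size were not taken over all measured genes, so they cannot be called particular to integrins and cadherins. Repeat readings exist only as other probe sets of the same gene. Across 6759 genes with such a pair, the SD per log2 ratio was 0.36 between OIS and growing cells, 0.33 between RS and growing cells and 0.37 between the senescent states. This covers probe error and not differences between cultures. In the 16 integrin and cadherin genes with such a pair this SD was 0.37, 0.69 and 0.79 in those comparisons. The larger SDs, where RS entered, lean on ITGB8. Its pair gave log2 ratios of -3.33 and 0.00 for RS over growing cells and 4.78 and 0.40 for OIS over RS. The median gap between the log2 ratios of a pair was 0.29, 0.27 and 0.30 in the 16 genes, against 0.24, 0.24 and 0.25 over all pairs.

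**Figure D2:**
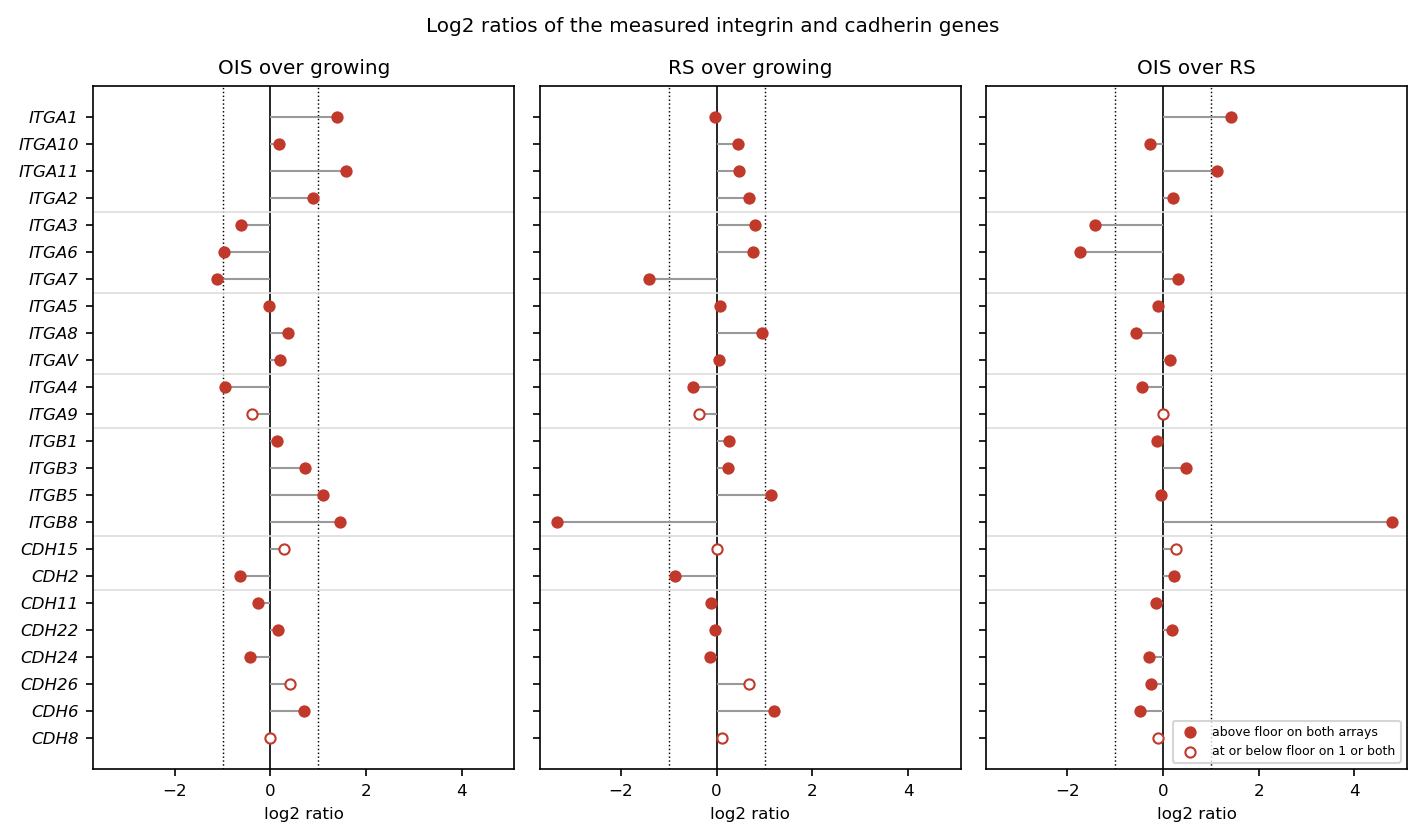
Log2 ratios of the 24 measured integrin and cadherin genes in OIS over growing cells, RS over growing cells and OIS over RS, ordered by the ligand or class of the protein, with 1 array a state. Filled points were above the floor on both arrays, open points at or below it on 1 or both, and dotted lines mark 2-fold. The ITGB8 ratio runs from -3.33 in RS over growing cells to 4.78 in OIS over RS, and most cadherins lie between the dotted lines in every panel.

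Of 4 collagen receptor subunits ITGA1 and ITGA11 were past 2-fold higher in OIS than in growing cells. ITGA1, ITGA2, ITGA10 and ITGA11 each pair with ITGB1 to bind collagens, ITGA1 with a preference for basement membrane collagen and ITGA11 for the fibrillar collagens of connective tissue. All 4 were measured and all 4 had a ratio above 0 in OIS over growing cells, with a median log2 ratio of 1.14. Over all genes, 6349 of 13466 measured had a ratio above 0 in this comparison, and 4.92% were past 2-fold higher. The ITGA10 log2 ratio was 0.18, under the SD of 0.36 from pairs of probe sets. ITGA11 had a signal of 1398 in OIS, 640 in RS and 465 in growing cells. OIS was thus highest, 3.01-fold above growing cells and 2.18-fold above RS, while RS was 1.38-fold above growing cells. Its other 2 probe sets above the floor, both near it, gave log2 ratios of 0.76 and, as a lower limit because growing cells were below the floor, 1.13 for OIS over growing cells. ITGA1 had a signal of 3677 in OIS, 1376 in RS and 1405 in growing cells. The RS and growing arrays were alike for this gene, and OIS was 2.62-fold above growing cells and 2.67-fold above RS. All 3 of its probe sets showed OIS highest, with other log2 ratios of 1.17 and 1.53 over growing cells.

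ITGA2, the other widely expressed collagen receptor subunit, had a signal of 16677 in OIS, 14475 in RS and 9047 in growing cells. Both senescent arrays were above the growing array, by 1.84-fold in OIS and 1.60-fold in RS, so that ITGA2 stayed under 2-fold with this probe set. Its other probe set, at 5744 in OIS, 4845 in RS and 2678 in growing cells, gave log2 ratios of 1.10 and 0.86. ITGA10, known from cartilage, was at 91.2 in OIS, 110 in RS and 80.4 in growing cells, and its single probe set differed by 1.13-fold and 1.36-fold from growing cells.

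Of 3 laminin receptor subunits ITGA3 and ITGA6 were past 2-fold lower in OIS than in RS, beside 5.27% of all measured genes. ITGA3 and ITGA6 form the main laminin receptors of epithelia and many other cells, and ITGA7 that of muscle. ITGA6 had a signal of 1674 in OIS, 5551 in RS and 3268 in growing cells. The growing array lay between the senescent ones, and the gene was 3.32-fold lower in OIS than in RS, 1.95-fold lower in OIS than in growing cells and 1.70-fold higher in RS. Its other probe set had 331, 1327 and 809 units on the OIS, RS and growing arrays, a log2 ratio of -2.00 for OIS over RS. ITGA3 had a signal of 182 in OIS, 486 in RS and 280 in growing cells, the same order of states. It was 2.67-fold lower in OIS than in RS, by a single probe set whose name marks it as able to bind several transcripts. ITGA7 was lower on both senescent arrays, at 64.3 in OIS and 52.0 in RS against 139 in growing cells, 2.17-fold and 2.68-fold lower. This gene was near the floor, and its other probe set, at 27.6, 50.9 and 39.2 units in OIS, RS and growing cells, was below the floor except in RS. ITGA7 had a log2 ratio of -0.65 in both comparisons, under 2-fold, once the floor was raised to the 60th percentile.

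None of the 3 alpha subunits that bind the RGD sequence of fibronectin and related proteins passed 2-fold in any comparison. ITGA5, the fibronectin receptor subunit, had a signal of 659 in OIS, 708 in RS and 671 in growing cells. ITGAV, the partner shared by several beta subunits, had 12847, 11552 and 11141 in the same order. Both genes have a single probe set, and no ratio of either reached 1.2-fold. ITGA8, which binds nephronectin in developing kidney, had 1183 in OIS, 1749 in RS and 910 in growing cells. RS was highest, 1.92-fold above growing cells, and its other 2 probe sets above the floor gave log2 ratios of 0.18 and 0.60 for RS over growing cells.

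ITGA4, which binds VCAM1 and fibronectin, was lower on both senescent arrays. Its signal was 560 in OIS, 762 in RS and 1080 in growing cells, 1.93-fold lower in OIS and 1.42-fold lower in RS. All 4 of its probe sets gave negative log2 ratios, from -1.10 to -0.69 for OIS over growing cells and from -1.18 to -0.50 for RS over growing cells. ITGA9, a close relative of ITGA4, was above the floor only in growing cells, at 59.1 against 28.1 in OIS and 29.9 in RS, at least 1.30-fold lower in each.

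Among the beta subunits ITGB8 separated the states most. ITGB8 pairs with ITGAV and binds the latent form of TGF-beta, which it can set free for signaling. Its signal was 2207 in OIS, 80.3 in RS and 808 in growing cells. The 3 arrays were far apart, with OIS 2.73-fold above growing cells, RS 10.1-fold below them and OIS 27.5-fold above RS. These values rest on 1 probe set of 5. Another was at 60 in OIS and below the floor at 20.7 in RS and 20.0 in growing cells, at least 1.32-fold higher in OIS. The remaining 3 were below the floor on every array, so that the median over all 5 gave a log2 ratio of 0.00 in each comparison. The antisense RNA named for this locus, ITGB8-AS1, was at 60.8 in OIS, below the floor at 12.7 in RS, and at 89.1 in growing cells. ITGB8 and its antisense RNA are separate probe sets here, and RS was lowest for both.

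ITGB5 was higher on both senescent arrays. ITGB5 forms the vitronectin receptor with ITGAV that clusters in focal adhesions. Its signal was 11478 in OIS and 11742 in RS, against 5352 in growing cells. By this probe set OIS was 2.14-fold and RS 2.19-fold above growing cells, and the senescent arrays were alike. The others differed in the order of the senescent states, with log2 ratios of OIS over RS from -0.83 to 0.58. All 4 probe sets gave positive ratios over growing cells, the others with log2 values from 0.40 to 1.11 in OIS and from 0.34 to 1.68 in RS. With the median of all 4 probe sets the log2 ratio was 0.97 in OIS and 0.83 in RS, so that neither reached 2-fold. Without probe sets whose names mark them as able to bind several transcripts it was 0.84 in OIS and 1.68 in RS.

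ITGB1, the common partner, had a signal of 28784 in OIS, 31517 in RS and 26184 in growing cells, and its folds over growing cells were 1.10 and 1.20. Its other 2 bright probe sets gave log2 ratios of 0.05 and 0.08 for OIS and 0.40 and 0.50 for RS. A dim probe set, at 23.5 in OIS, 101 in RS and 38.9 in growing cells, gave 1.15 in RS as a lower limit. ITGB3, the vitronectin receptor subunit best known from platelets and bone-resorbing cells, had 487 in OIS, 348 in RS and 294 in growing cells. It was 1.66-fold higher in OIS than in growing cells, but its probe sets disagreed in sign, with log2 ratios from -0.35 to 0.83 in the others above the floor. ITGB2, the leukocyte subunit, ITGB4, the epithelial hemidesmosome subunit, and ITGB7, found on lymphocytes, were below the floor on every array, and the highest of their signals was 41.8, of ITGB2 in OIS.

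Of the cadherins CDH6 alone passed 2-fold, in RS over growing cells. CDH2, CDH6, CDH11, CDH22 and CDH24 were above the floor on all 3 arrays, and CDH8, CDH15 and CDH26 on some. CDH6, K-cadherin of kidney and neural crest, had a signal of 3972 in OIS, 5547 in RS and 2433 in growing cells. RS was highest, 2.28-fold above growing cells, and OIS was 1.63-fold above them. Its probe sets did not all reach that size. The 4 others that were higher in RS gave log2 ratios from 0.48 to 0.75, and a dim one, at 56.5 in OIS, 100.1 in RS and 116 in growing cells, gave -0.22. With the median of all 6 the log2 ratio was 0.73, under 2-fold.

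CDH2, N-cadherin, the classical cadherin of mesenchymal cells, was lower on both senescent arrays. Its signal was 3194 in OIS and 2706 in RS, against 4944 in growing cells, 1.55-fold and 1.83-fold lower. Its other probe set had 363 in OIS, 385 in RS and 686 in growing cells, with log2 ratios of -0.92 and -0.83. Both probe sets thus showed the growing array highest, and neither passed 2-fold. CDH11, OB-cadherin of fibroblasts and osteoblasts, had 5687 in OIS, 6310 in RS and 6822 in growing cells. Its 4 probe sets all gave negative log2 ratios over growing cells, from -0.84 to -0.26 in OIS and from -0.79 to -0.11 in RS.

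The other cadherins were near the floor. CDH22 had 98.2 in OIS, 85.8 in RS and 87.6 in growing cells, and CDH24 had 55.3, 67.4 and 73.8. CDH26 was at 60.7 in OIS, 72.7 in RS and below the floor at 40.9 in growing cells. CDH15, M-cadherin of muscle precursors, was above the floor only in OIS, at 55.3 against 38.0 in RS and 11.4 in growing cells, and CDH8 only in RS, at 48.9 against 34.1 in OIS and 21.5 in growing cells. No fold of these 5 reached 2 with this floor, but those of CDH8, CDH15 and CDH26 over growing cells are lower limits or rest below it. Under a lower floor, the 25th percentile of the signals, CDH15 and CDH8 passed it: the log2 ratio over growing cells was 1.61 in OIS and 1.26 in RS for CDH15, and 1.19 in RS for CDH8. With a pseudocount of 16 in place of the floor it was 1.38 for CDH15 in OIS. Below the floor on all arrays were 13 cadherins: CDH1, which is E-cadherin of epithelia, CDH3, P-cadherin, CDH5, VE-cadherin of endothelium, and CDH7, CDH9, CDH10, CDH12, CDH16, CDH17, CDH18, CDH19, CDH20 and CDH23. The highest signal of any of them was 26.0.

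Cadherin partners and relatives were counted from lists of 17 and 25 genes. Of 11 measured catenins and partners 1 was at least 2-fold higher in OIS than in growing cells, 3 were lower and the median log2 ratio was -0.37, beside 4.92% and 6.63% of all measured genes. JUP, plakoglobin, which links cadherins of both adherens junctions and desmosomes, had 1653 in OIS, 537 in RS and 343 in growing cells, 4.81-fold higher in OIS. Lower in OIS were CTNNAL1, an alpha-catenin relative, by 2.20-fold, PKP4, a p120-like catenin, by 2.16-fold, and the adhesion molecule NECTIN1 by at least 2.01-fold. NECTIN1 was below the floor in OIS and another of its probe sets gave a log2 ratio of 0.40. CTNNB1, beta-catenin, had 7995, 8192 and 7960 units in OIS, RS and growing cells, and CTNNA1 was 1.11-fold higher in OIS than in growing cells. Other CTNNA1 probe sets disagreed, with log2 ratios over growing cells from -1.20 to 0.11 in OIS and from -0.07 to 0.59 in RS. In RS none of the 11 passed 2-fold, beside 3.72% of all measured genes higher and 5.58% lower, and the median was -0.29. JUP at 1.57-fold and CTNNA1 at 1.37-fold were higher and ARVCF at 1.74-fold and AFDN at 1.58-fold lower in RS than in growing cells.

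Of 13 measured other cadherin superfamily genes none was at least 2-fold higher in OIS than in growing cells and 2 were lower, while in RS 1 was higher and 3 lower. Of all measured genes 4.92% were higher and 6.63% lower in OIS, and 3.72% higher and 5.58% lower in RS. Their median log2 ratios were -0.18 and -0.23. DSG2, desmoglein of desmosomes, had 116 in OIS, 27.7 in RS and 313 in growing cells, 2.70-fold lower in OIS and at least 6.87-fold lower in RS, while another of its probe sets gave a log2 ratio of -0.40 in both. DCHS1, a large cadherin of planar polarity, had 565 in OIS and 429 in RS, against 1316 in growing cells, 2.33-fold and 3.07-fold lower. PCDH10, a protocadherin, was at least 2.66-fold lower in RS at 12.4, against 121 in growing cells. PCDH1 was higher on both senescent arrays, by at least 1.59-fold in OIS and at least 2.39-fold in RS, while PCDH18 was 1.51-fold higher in OIS and PCDH9 1.32-fold higher in RS than in growing cells.

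Transcription factors of the epithelial-mesenchymal transition repress CDH1 in many cells. Of 6 measured, with median log2 ratios of 0.15 in OIS and 0.05 in RS, none passed 2-fold in OIS over growing cells, with ZEB1 at 1.52-fold and TWIST1 at 1.23-fold higher and ZEB2 at 1.59-fold lower. In RS TWIST1 was lower, at 980 against 2785 in growing cells, 2.84-fold, and it was 3420 in OIS. TWIST2 was 1.39-fold lower in RS, ZEB1 1.14-fold higher and SNAI1, near the floor, at least 1.35-fold higher. Past 2-fold over growing cells were 4.92% of all measured genes higher and 6.63% lower in OIS, and 3.72% higher and 5.58% lower in RS.

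The proteins that tie integrins to actin and to signaling kinases were counted in the same way. Of 24 measured adaptors and kinases 1 was past 2-fold higher in OIS than in growing cells, none was lower and the median log2 ratio was -0.11, where all measured genes gave 4.92% higher and 6.63% lower. In RS 1 was higher, none was lower and the median was 0.16, beside 3.72% of all measured genes higher and 5.58% lower. Such counts are near those shares. BCAR1, the docking protein p130Cas, was 2.08-fold higher in OIS, although another of its probe sets gave a log2 ratio of -0.25. FYN, a Src family kinase, was 1.76-fold higher, the focal adhesion protein ZYX 1.63-fold lower and PARVA, an actin-binding partner of ILK, 1.43-fold lower in OIS. LIMS2, another partner of ILK, had 205 in OIS, 588 in RS and 267 in growing cells, 2.20-fold higher in RS. ITGB1BP2, a chaperone-like protein of muscle, was 1.98-fold higher in RS, and the kindlins FERMT1 and FERMT3 were 1.71-fold and at least 1.35-fold lower in RS than in growing cells. Talin, the main activator of integrins, was at 232 in OIS, 212 in RS and 267 in growing cells by TLN1.

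Among integrin ligands ICAM1 and SPP1 were the 2 past 2-fold higher in OIS than in growing cells. Of 16 measured ligands none was lower in OIS, and in RS 1 was higher and 2 lower, with median log2 ratios of 0.10 and 0.08. The shares of all measured genes were 4.92% and 6.63% in OIS and 3.72% and 5.58% in RS. ICAM1, which binds the leukocyte integrins with ITGB2, had 4335 in OIS, 337 in RS and 349 in growing cells, 12.4-fold higher in OIS. SPP1, osteopontin, a ligand of ITGAV pairs, had 421 in OIS, 36.2 in RS and 119 in growing cells. OIS was 3.54-fold above growing cells and RS at least 2.62-fold below them. VCAM1, a ligand of ITGA4, was 2.27-fold lower in RS, at 983 against 2230 in growing cells, and stood at 2316 in OIS. MFGE8, which bridges ITGAV pairs to dying cells, was 2.17-fold higher in RS and EDIL3 1.71-fold higher. Other EDIL3 probe sets gave log2 ratios from 1.42 to 1.70 for RS over growing cells, past 2-fold, and from -0.18 to -0.17 for OIS over growing cells. FN1, fibronectin, was at 32536 in OIS, 30595 in RS and 29571 in growing cells. Its other probe sets gave log2 ratios over growing cells from -0.05 to 0.65 in OIS and from 0.09 to 0.95 in RS. The laminin chains LAMA2 and LAMA4 were 1.31-fold and 1.16-fold lower in OIS by their brightest probe sets. No laminin chain measured passed 2-fold in either senescent state by its brightest probe set. Other LAMA4 probe sets disagreed, with log2 ratios from -0.20 to 1.21 in OIS and from -1.08 to 0.54 in RS over growing cells. Those of LAMA2 ranged from -0.35 to 0.11 in OIS.

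TGF-beta genes and genes of proteins grouped with its latent form were counted as a list of 8, all measured. Release of TGF-beta by ITGAV pairs was not tested, and not every gene of the list need take part in it. In OIS over growing cells 1 was past 2-fold higher, none lower, and the median log2 ratio was 0.48. In RS, too, 1 was higher, while none was lower and the median was 0.12. Beside these counts, 4.92% of all measured genes were higher and 6.63% lower in OIS, and 3.72% higher and 5.58% lower in RS. LRRC32, also called GARP, which holds latent TGF-beta at the cell surface, had 744 in OIS, 197 in RS and 139 in growing cells, 5.34-fold higher in OIS. TGFB2 had 1882 in OIS, 3429 in RS and 1039 in growing cells, 3.30-fold higher in RS and 1.81-fold higher in OIS, and its other probe sets ranged from -0.10 to 2.02 in RS. TGFB1 was 1.21-fold lower in RS than in growing cells. LTBP2, which shares the name of the latent TGF-beta binding proteins, was 1.43-fold higher in RS than in growing cells. LTBP1 was 1.20-fold lower in OIS, while another of its probe sets gave a log2 ratio of -1.13, past 2-fold. LTBP4 was 1.45-fold lower in OIS and 1.33-fold lower in RS than in growing cells, with other probe sets from -0.44 to 0.47 in OIS.

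Of 6 measured integrin genes outside the naming rule, ITGBL1, a secreted protein with integrin-like repeats, differed most. The median log2 ratio of the 6 was -0.20 in OIS and 0.04 in RS. ITGBL1 had 234 in OIS, 1304 in RS and 881 in growing cells, 3.77-fold lower in OIS than in growing cells, with log2 ratios of other probe sets from -2.33 to -0.37. The order of states was that of ITGA3 and ITGA6. ITGAE was 1.21-fold lower in OIS, ITGAM 1.37-fold higher in OIS and 1.33-fold higher in RS, ITGAL at least 1.51-fold lower in RS, and ITGAX, ITGA2B and ITGAD were near the floor or below it.

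Set directly against each other, OIS and RS differed past 2-fold in several of these partners. Higher in OIS were the ligands ICAM1 at 12.9-fold, SPP1 at least 9.25-fold, VCAM1 at 2.36-fold and TNC, the matrix protein tenascin-C, at 2.17-fold. MFGE8 was 2.18-fold lower in OIS, so that of 16 ligands 4 were higher and 1 lower, beside 5.48% and 5.27% of all measured genes. Among adaptors FERMT1 was 2.75-fold higher in OIS and LIMS2 and PARVA were 2.86-fold and 2.02-fold lower, 1 and 2 of 24. JUP was 3.08-fold and LRRC32 3.77-fold higher in OIS, each the sole gene of its list past 2-fold. DSG2 at least 2.55-fold, PCDH10 at least 3.23-fold and TWIST1 at 3.49-fold were higher in OIS as well, and ITGBL1 was 5.58-fold lower. Other probe sets stayed under 2-fold for FERMT1 (log2 0.36 to 0.56), TNC (0.17 to 0.66) and DSG2 (0.00). They ranged from -1.20 to -0.11 for PARVA and from -2.78 to -0.58 for ITGBL1. Past 2-fold in the same direction were those of ICAM1 (2.82 to 3.76) and MFGE8 (-1.06).

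**Figure D3:**
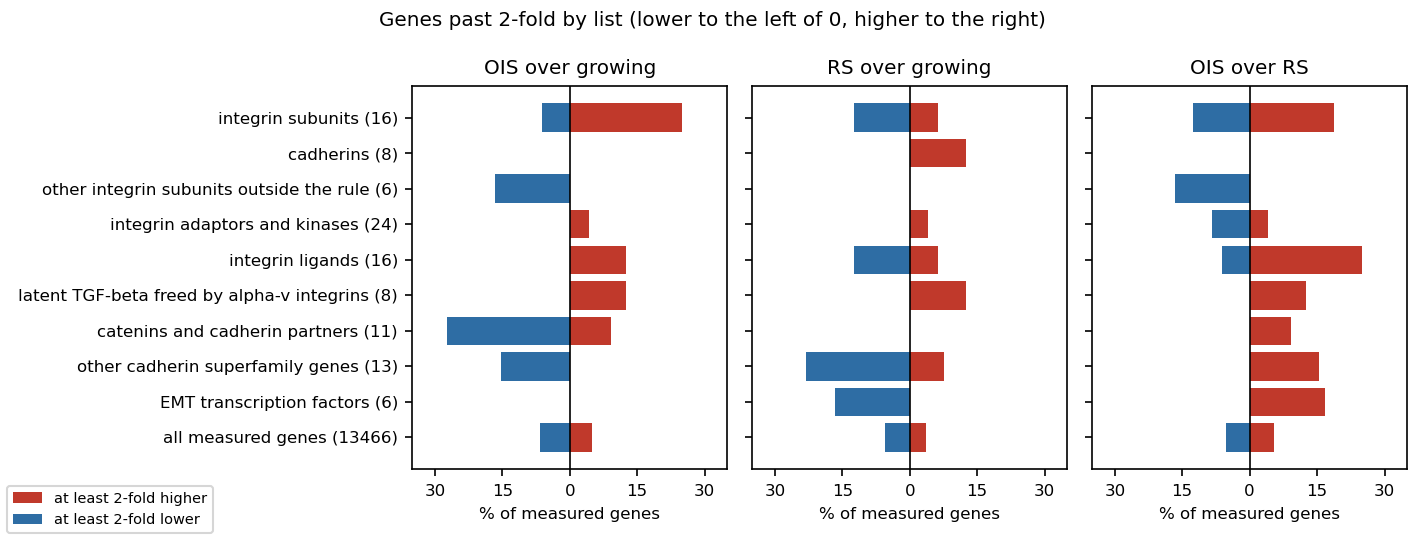
Percent of measured genes at least 2-fold higher (right of 0) or lower (left of 0) in each list, with the number measured in brackets, for OIS over growing cells, RS over growing cells and OIS over RS. Integrin subunits reach 25% higher in OIS over growing cells where all measured genes reach 4.92%, each list holds few genes, and no cadherin of 8 passes 2-fold in the first or the last panel.

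Markers of the labelled cell type and of others were read beside these results. All 10 fibroblast markers were above the floor on all arrays, and their summed signal was 154651 in OIS, 170610 in RS and 162091 in growing cells. Within that list DCN was 2.59-fold lower in OIS than in growing cells and 2.97-fold lower than in RS, and LUM was 2.22-fold lower in OIS than in RS. HRAS, by a single probe set, was at 11748 in OIS, 2553 in RS and 7696 in growing cells, and whether that probe set reads the ER:Ras transgene is not given in the sources used here. Of 8 endothelial markers 4 were above the floor on each array, with summed signals of 2161 in OIS, 2254 in RS and 1495 in growing cells. Of these ROBO4, PECAM1 and VWF were past 2-fold higher in OIS than in growing cells, while CDH5, KDR, TIE1 and CLDN5 were below the floor on every array. TEK made up most of the sum, at 1275 in OIS, 2033 in RS and 1251 in growing cells, 1.02-fold higher in OIS than in growing cells. Another probe set of ROBO4 gave a log2 ratio of 0.28 for OIS over growing cells, and others of PECAM1 gave 0.23 to 0.28, all under 2-fold. Epithelial markers summed to 3273 in OIS, 6547 in RS and 3451 in growing cells, mostly KRT18. EPCAM was at 49.1 in OIS, 194 in RS and 157 in growing cells, 3.20-fold lower in OIS than in growing cells, and KRT8 and KRT18 were 2.20-fold and 2.01-fold higher in RS, while CDH1, KRT5, CLDN3 and CLDN4 were below the floor. Blood cell markers summed to 263, 224 and 167 units in OIS, RS and growing cells, with PTPRC below the floor. Muscle markers summed to 189, 164 and 153 units, and neural and glial markers, nearly all from TUBB3, to 8000, 13403 and 13532. EPCAM had the same order of states as ITGA3 and ITGA6, highest in RS and lowest in OIS, but the order was not particular to epithelial markers. By their brightest probe sets the fibroblast markers DCN, LUM and THY1 had it too. Of the other epithelial markers KRT18 had it, with OIS and growing cells nearly level. KRT8 was lowest in growing cells, and KRT19 and SFTPC were highest there. The part of these markers in the integrin and cadherin differences was not tested.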

How the data were processed

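Per the labels, total RNA from each culture was made into biotin-labelled cRNA and read on 1 array. The deposited values are a linear signal intensity per probe set, which the authors made, per the submitters' processing notes, with MAS5, and its version is not given in the sources used here. This procedure scales an array by a single factor, and a change common to all genes would not be seen.

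Of 54613 probe sets 41091 named 1 gene in the platform annotation, 1801 named several and 11721 none, and only those with 1 gene were used. Log2 ratios were taken after raising signals to the pooled median (45.5). Each gene was read from its brightest probe set by mean log2 signal, and counts of ratios of 2-fold or more carry no test. All integrin and cadherin genes above the floor could be named, those past 2-fold with all 3 signals, and from each list the 2 highest and 2 lowest ratios over growing cells.

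The genes and lists were chosen with earlier results of these data known. The steps were tested on simulated data. Alternatives were quantile normalization, centring, floors at 11.7 and 88.8, a pseudocount of 16 without floor, no filter, the median of probe sets, leaving out probe sets with names ending in _s_at or _x_at, and 3-fold. Python 3.11.15, numpy 2.4.6, pandas 2.3.3 and matplotlib 3.10.9 were used.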

Additional observations from a re-analysis of the deposited data

How the results depend on the processing

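No paired analysis was possible because each state has 1 array and the labels give no replicate numbers. The 14 ratios past 2-fold, of 8 genes, kept sign and 2-fold size after quantile normalization and with the lower floor. Centring and leaving out the filter could not change them, since the median ratios were 0.00 and these genes were measured. With the higher floor 12 of 14 stayed past 2-fold, with the pseudocount 13, and without _s_at and _x_at probe sets 12 of 13. When all probe sets entered as a median, 6 of 14 stayed past 2-fold, and the 3 ITGB8 ratios were 0.00, since most of its probe sets were below the floor. The median of only the probe sets above the floor, chosen after seeing the data, left 8 of 14 past 2-fold. No ratio past 2-fold changed sign.

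Counts of integrin and cadherin genes higher or lower moved by over 1.5 times as follows, and other counts moved less. OIS over growing cells: 2 higher in place of 4 with either median, 1 at 3-fold; in place of 1 lower, 2 with the lower floor and 0 with the higher floor, the pseudocount or 3-fold. RS over growing cells: in place of 2 higher, 7 with the lower floor and 0 with either median or at 3-fold; in place of 2 lower, 1 with the higher floor, at 3-fold or with the median above the floor, and 0 with that of all probe sets. OIS over RS: in place of 3 higher, 1 at 3-fold; in place of 2 lower, 5 with the lower floor and 1 at 3-fold or without _s_at and _x_at probe sets. Smaller moves were to 6 higher in OIS over growing cells with the lower floor, 5 with the pseudocount and 3 without _s_at and _x_at probe sets, and to 4 higher in OIS over RS with the lower floor and 2 with the median of all probe sets. In RS over growing cells 3 were higher after quantile normalization, a move of 1.5 times. With the lower floor, 32 of these genes counted as measured. A probe set near the floor gives a ratio that depends on the floor, and 1 array a state limits every value.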
